A study of Mus musculus with 8 samples.

Results

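Cdh19, Plekhb1, Gjc3, Sox10, Bcan and S100b are 6 genes best known from glial and myelinating cells, read here in mouse whole testis, out of 54087 genes counted. They were selected on measured values: Cdh19, Plekhb1 and Gjc3 stood among the genes with the largest excess in Dnmt3a mutant over wildtype testis in these libraries, and Sox10, Bcan and S100b were listed with them. The differences between genotypes therefore chose them and are given as a description, with no test. RNA came from whole testes of C57BL/6 males, homozygous mutant (KO) or homozygous wildtype (WT) for Dnmt3a, the gene of an enzyme that places new DNA methylation marks. The groups were KO at 25 days post partum (dpp), WT at 25 dpp, KO at 19 dpp and WT at 19 dpp, with 2 libraries each. No further allele or agent is named in the labels, which do not say which stretch of Dnmt3a the mutation removes. They do not say either that replicates are separate animals, so every p-value measures the spread between these libraries, which may be technical.

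In peripheral nerve, Schwann cells wrap axons, and some of them build the layered membrane called myelin. They arise from the neural crest under the control of the transcription factor SOX10, which switches on genes of glial identity and later genes of myelin. The testis holds nerve fibres in its capsule and along its vessels, together with Sertoli, Leydig, peritubular, stromal, endothelial and germ cells, and several genes named for glia are also read in non-neural cells.

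Gene totals ran between 22515812 and 50445334 counts per library. Levels are CPM, the counts scaled to a common library size by the TMM method, and the value that 3 counts would give lay between 0.0812 and 0.126 CPM, a floor that covers counting error only. Dnmt3a itself was read at 76.9 and 67.2 CPM in KO and 48.7 and 70.0 CPM in WT at 25 dpp. At 19 dpp it had 114 and 112 CPM in KO libraries, against 147 and 141 CPM in WT libraries. The groups overlapped at 25 dpp, and edgeR's quasi-likelihood test called neither age (adjusted p = 0.204 at 25 dpp and 0.201 at 19 dpp). A whole-gene count does not check the genotype where transcript remains after the deletion, so the labels were taken as given. WT replicates 1 and 2 at 19 dpp stood apart from each other, with summed pachytene spermatocyte markers at 868 and 2123 CPM.

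Start regions are shown for Bcan, Gjc3 and S100b because Dnmt3a methylates CG dinucleotides and these genes range from a CG-rich to a CG-poor start. They come from RefSeq (GRCm38.p6, the assembly also called mm10), run 5′ to 3′ on the gene's strand over 300 bases, of which 250 lie before the start, and have each CG in capitals. The table held 5 entries for 4 of the 6 genes; Cdh19 and Sox10 had none. Bcan lies at chr3:88000307-88000606 on the minus strand, Gjc3 at chr5:137963049-137963348 on the minus strand and S100b at chr10:76253586-76253885 on the plus strand.
Bcan: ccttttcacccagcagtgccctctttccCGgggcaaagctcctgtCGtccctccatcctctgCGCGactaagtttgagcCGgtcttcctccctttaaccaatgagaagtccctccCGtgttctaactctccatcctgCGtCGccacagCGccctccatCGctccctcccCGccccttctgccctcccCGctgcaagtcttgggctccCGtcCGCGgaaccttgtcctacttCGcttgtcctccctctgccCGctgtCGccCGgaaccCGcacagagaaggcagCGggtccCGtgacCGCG
Gjc3: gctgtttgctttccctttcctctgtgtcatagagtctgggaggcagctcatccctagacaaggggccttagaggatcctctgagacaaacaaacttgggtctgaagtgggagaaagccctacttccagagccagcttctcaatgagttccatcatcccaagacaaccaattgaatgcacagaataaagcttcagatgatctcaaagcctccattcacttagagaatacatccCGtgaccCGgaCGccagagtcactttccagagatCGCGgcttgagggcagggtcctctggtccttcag
S100b: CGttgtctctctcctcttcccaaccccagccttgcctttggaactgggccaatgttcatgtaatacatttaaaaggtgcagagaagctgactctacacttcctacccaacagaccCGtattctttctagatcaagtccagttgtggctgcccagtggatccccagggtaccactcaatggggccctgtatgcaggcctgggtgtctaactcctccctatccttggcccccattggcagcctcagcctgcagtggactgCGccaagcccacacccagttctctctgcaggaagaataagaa
Bcan had 24 CG in its 300 bases, at the 80.0th percentile of 32851 promoters in the table, whose median was 7 and whose upper quartile was 20. Gjc3 had 5, S100b had 3, and the pair of Plekhb1 starts had 6 and 3, all below that median. So the genes with the highest KO over WT ratios at 25 dpp include both a CG-rich and a CG-poor start. No methylation was measured here. The letters ACAAAG or ACAATG, a core to which SOX proteins bind, were searched on both strands and do not overlap each other. They occurred in 1 of the 5 entries, the second start of Plekhb1, and in 28.6% of all promoters in the table.

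Sox10, a transcription factor of the SOXE group that neural crest glia require, lies at chr15:79154908-79165240 on the minus strand in GENCODE M21. At 25 dpp Sox10 was read at 1.89 and 2.81 CPM in KO libraries and 1.17 and 1.73 CPM in WT libraries. At 19 dpp its levels were 15.9 and 12.0 CPM in KO and 3.18 and 3.59 CPM in WT. KO lay above WT at both ages without overlap, by a log2 fold of 0.69 (SE 0.34) at 25 dpp and 2.04 (SE 0.33) at 19 dpp. The excess at 25 dpp changed sign, to -0.68, when libraries were scaled to the summed Sertoli markers.

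Cdh19 and Gjc3 encode surface proteins. Cdh19 (chr1:110888326-110977584, minus strand) encodes a classical cadherin, a calcium-dependent adhesion protein known from neural crest derivatives and Schwann cell precursors. At 25 dpp Cdh19 was read at 3.79 and 2.59 CPM in KO (140 and 73 counts) and at 0.164 and 0.205 CPM in WT (6 and 7 counts). At 19 dpp it was read at 9.69 and 8.06 CPM in KO and 1.86 and 1.03 CPM in WT. KO libraries stood above WT libraries at both ages, with log2 folds of 4.09 (SE 0.46) at 25 dpp and 2.61 (SE 0.39) at 19 dpp. Gjc3 (chr5:137953461-137963098, minus strand) encodes a connexin of myelinating glia, a subunit of channels in the cell membrane. At 25 dpp Gjc3 was read at 7.44 and 9.55 CPM in KO and 0.273 and 0.439 CPM in WT, a log2 fold of 4.57 (SE 0.56). At 19 dpp the groups overlapped, with 3.90 and 6.13 CPM in KO and 4.79 and 1.95 CPM in WT, and the log2 fold was 0.58 (SE 0.47), with 1.36 without WT replicate 1 and 0.07 without WT replicate 2. The KO excess of Gjc3 thus stood at 25 dpp, and at 19 dpp the sign of its log2 fold changed to -0.25 with Sertoli scaling and -0.23 with scaling to stromal and endothelial markers.

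Bcan (chr3:87987531-88000230, minus strand) encodes brevican, a chondroitin sulfate proteoglycan of the matrix of brain. At 25 dpp Bcan was read at 23.2 and 12.96 CPM in KO and 1.12 and 1.29 CPM in WT, a log2 fold of 3.91 (SE 0.64). At 19 dpp it was read at 29.4 and 26.5 CPM in KO and 36.4 and 10.7 CPM in WT, so that both KO values lay inside the WT range. The log2 fold at 19 dpp was 0.25 (SE 0.54), moved to 1.39 without WT replicate 1 and to -0.38 without WT replicate 2, and was -0.59 with Sertoli scaling and -0.60 with stromal and endothelial scaling. Like Gjc3, Bcan gave groups that overlapped at 19 dpp and a wide gap at 25 dpp.

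Plekhb1 and S100b encode intracellular proteins. Plekhb1 (chr7:100642892-100662414, minus strand) encodes a membrane-associated protein with a pleckstrin homology domain, first described in photoreceptors. At 25 dpp Plekhb1 was read at 8.71 and 10.4 CPM in KO and 2.13 and 1.93 CPM in WT, and at 19 dpp at 17.5 and 14.3 CPM in KO and 2.83 and 2.39 CPM in WT. Its excess was of like size at both ages, with log2 folds of 2.23 (SE 0.26) at 25 dpp and 2.61 (SE 0.26) at 19 dpp. S100b (chr10:76253853-76261159, plus strand) encodes a calcium-binding protein used as a marker of astrocytes and Schwann cells. At 25 dpp S100b was read at 0.703 and 1.17 CPM in KO and 1.94 and 2.72 CPM in WT, and at 19 dpp at 14.3 and 11.5 CPM in KO and 3.60 and 4.43 CPM in WT. KO lay below WT at 25 dpp (log2 fold -1.32, SE 0.36) and above it at 19 dpp (log2 fold 1.68, SE 0.34), without overlap at either age. S100b overlaps Dip2a, which runs on the opposite strand. The strand setting of the counting is not given in the sources used here, so reads of S100b and Dip2a cannot be told apart. Dip2a was read at 78.8 and 53.8 CPM in KO and 36.1 and 39.9 CPM in WT at 25 dpp (log2 fold 0.80, edgeR adjusted p = 0.0138), the opposite sign to S100b. At 19 dpp Dip2a had 90.4 and 91.4 CPM in KO and 74.6 and 54.3 CPM in WT.

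**Figure D1:**
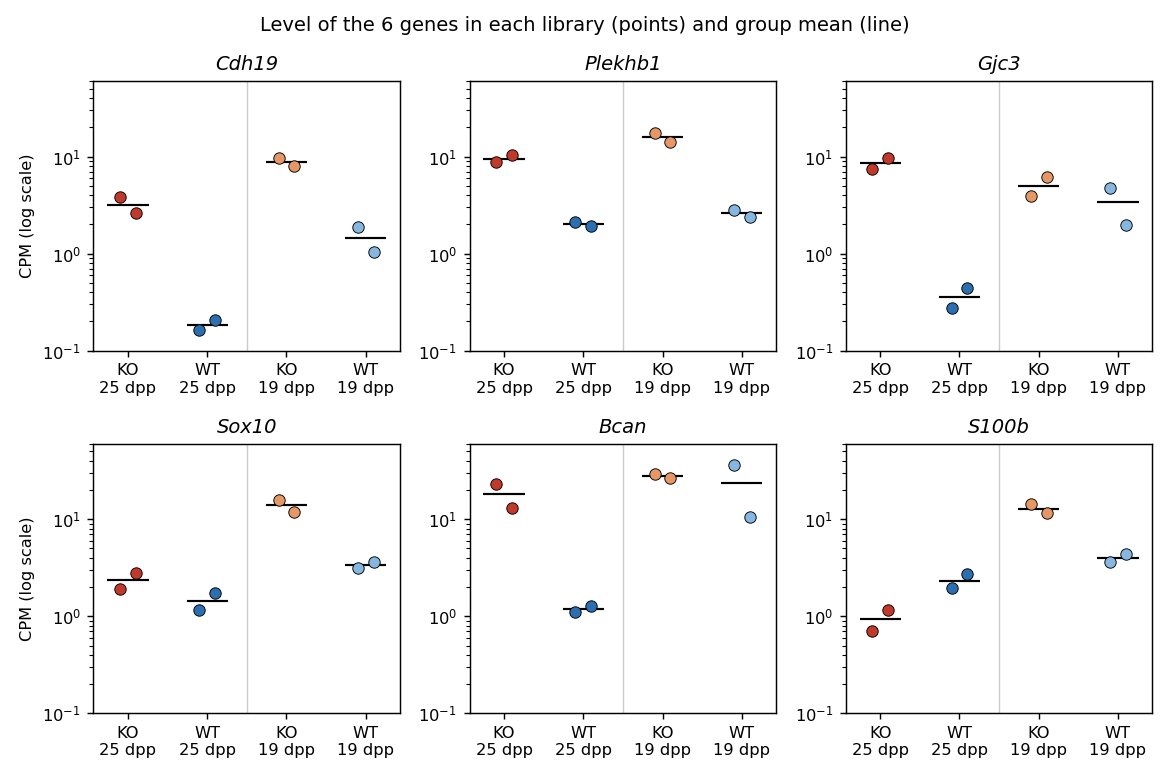
CPM of each of the 6 genes on a log axis, with 1 point per library and a short bar for each group's mean, KO left of WT at 25 dpp and then at 19 dpp. At 25 dpp KO lies above WT for 5 genes and below it for S100b, whereas at 19 dpp the groups overlap for Gjc3 and Bcan.

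Counted together, both KO libraries lay above both WT libraries for 5 of the 6 genes at 25 dpp, against 38.5% of all genes tested, and below them for 1, against 46.1%. At 19 dpp they lay above for 4 of 6, against 32.7% of all genes, and overlapped for 2. Since this contrast chose the genes, nothing is read from these counts. The median log2 fold of the 6 was 3.07 at 25 dpp and 1.86 at 19 dpp, where the median of all 23353 genes tested was -0.12 and 0. All 6 passed the filter on low counts. Ranked by log2 fold at 25 dpp, Gjc3 was 20th, Cdh19 42nd, Bcan 55th and Plekhb1 522nd, whereas Sox10 was 6483rd and S100b 16314th. At 19 dpp Cdh19 was 91st, Plekhb1 92nd, Sox10 303rd and S100b 453rd, while Gjc3 was 4978th and Bcan 8155th. By each gene's lower rank of the 2 ages, Cdh19 and Plekhb1 stood ahead of the other 4. The difference between the ages in KO excess, 25 minus 19 dpp on the log2 scale, was 3.99 for Gjc3, 3.66 for Bcan and 1.48 for Cdh19. It was -0.38 for Plekhb1, -1.35 for Sox10 and -3.00 for S100b. The 6 genes therefore fell on both sides, with no direction in common.

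**Figure D2:**
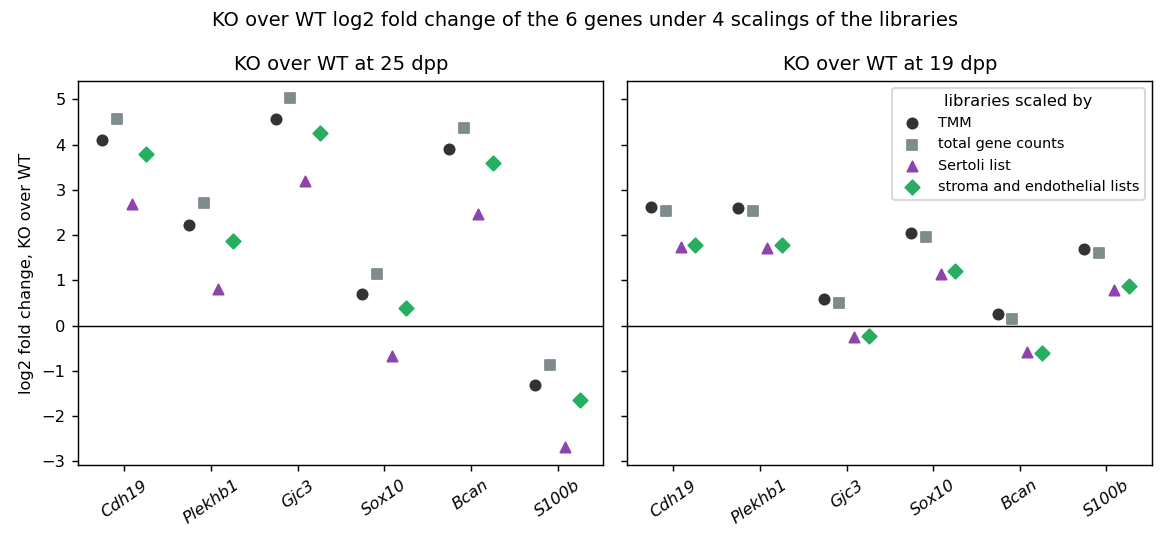
Log2 fold of KO over WT for each gene at 25 and 19 dpp under several scalings of the libraries, on a linear axis with a line at 0. Cdh19 and Plekhb1 stay above 0 under every scaling drawn, and Sox10 at 25 dpp and Gjc3 and Bcan at 19 dpp cross 0 with Sertoli scaling.

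In whole tissue, fewer cells of a type and less RNA per cell cannot be told apart, and the makeup of these testes moved with the groups. The summed level of 30 Sertoli markers was 11696 and 9936 CPM in KO and 3583 and 4531 CPM in WT at 25 dpp, and 14837 and 13235 CPM in KO and 8058 and 7172 CPM in WT at 19 dpp. Of these markers 27 rose in KO at 25 dpp (26.1% of all genes did) and 22 at 19 dpp (8.80%), and none fell. The summed level of 12 pachytene spermatocyte markers was 613 and 1192 CPM in KO and 10791 and 8292 CPM in WT at 25 dpp. The part of this makeup in the differences of the 6 genes was not tested. Scaling to the Sertoli sum moved the median of all genes to -1.54 at 25 dpp and -0.85 at 19 dpp. Under it the log2 fold at 25 dpp was 3.19 for Gjc3, 2.68 for Cdh19, 2.46 for Bcan, 0.81 for Plekhb1 and -2.70 for S100b. At 19 dpp it was 1.75 for Cdh19, 1.72 for Plekhb1, 1.14 for Sox10 and 0.78 for S100b. So Cdh19 and Plekhb1 stayed above WT relative to the Sertoli sum at both ages. In that sum the most abundant markers weigh most, and Clu averaged 4434 CPM in KO and 1317 CPM in WT at 25 dpp. With scaling to 24 stromal and endothelial markers, Cdh19 gave 3.79 and Plekhb1 1.88 at 25 dpp, and 1.78 each at 19 dpp.

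Levels of different genes were compared per kilobase of merged exons, as mean ± SD of CPM per kb over 2 libraries. In KO at 25 dpp Bcan led at 4.45 ± 1.78, followed by Plekhb1 at 2.57 ± 0.32 and Gjc3 at 1.95 ± 0.34, and neighbours among these 3 did not differ beyond their SD. Sox10 at 0.770 ± 0.21, Cdh19 at 0.745 ± 0.20 and S100b at 0.632 ± 0.22 followed and overlapped each other. In WT at 25 dpp the order was led by S100b at 1.57 ± 0.37, with Plekhb1 at 0.547 ± 0.037 and Sox10 at 0.475 ± 0.13 overlapping. Bcan at 0.296 ± 0.030, Gjc3 at 0.0817 ± 0.027 and Cdh19 at 0.0431 ± 0.0068 stood below. S100b, at the top in WT at 25 dpp, was thus among the 3 lowest and overlapping genes in KO. In KO at 19 dpp S100b had 8.69 ± 1.30, Bcan 6.88 ± 0.50, Sox10 4.57 ± 0.92, Plekhb1 4.28 ± 0.62, Cdh19 2.07 ± 0.27 and Gjc3 1.15 ± 0.36, and only Sox10 and Plekhb1 overlapped. In WT at 19 dpp Bcan had 5.79 ± 4.48 and S100b 2.704 ± 0.40, overlapping. Sox10 at 1.11 ± 0.096, Gjc3 at 0.774 ± 0.46 and Plekhb1 at 0.702 ± 0.084 overlapped as neighbours, and Cdh19 was lowest at 0.339 ± 0.14.

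With age, 3 of the 6 genes fell in KO between 19 and 25 dpp (edgeR adjusted p under 0.05, against 8.87% of all genes), and 4 fell in WT (against 25.4%). Under TMM scaling none rose, where 10.2% of all genes did in KO and 34.9% in WT. These contrasts use the libraries on which the genes were chosen, so they are not independent of the choice: a gene picked for a low WT level at 25 dpp tends to give a fall in WT. In KO, S100b gave a log2 change of -3.79 (SE 0.38), Sox10 -2.57 (SE 0.34) and Cdh19 -1.47 (SE 0.37), with edgeR adjusted p of 0.00566, 0.00764 and 0.0316. In WT, Bcan gave -4.29 (SE 0.64), Gjc3 -3.23 (SE 0.55), Cdh19 -2.95 (SE 0.46) and Sox10 -1.22 (SE 0.34), with edgeR adjusted p of 0.00213, 0.00241, 0.00188 and 0.0159. Cdh19 and Sox10 fell in both genotypes, S100b passed in KO, and Bcan and Gjc3 passed in WT. Values that did not pass were -0.74 for Plekhb1, -0.63 for Bcan and 0.75 for Gjc3 in KO (edgeR adjusted p 0.0706, 0.471 and 0.292), and -0.36 for Plekhb1 and -0.79 for S100b in WT (0.251 and 0.0767). These falls are relative to all genes under TMM scaling; with stromal and endothelial scaling, where the median of all genes was 1.82 in KO and 1.38 in WT, the change was 0.39 for Cdh19 in KO and 0.11 for Sox10 in WT, and the call of Sox10 in KO was lost (-0.72, edgeR adjusted p = 0.0708). Under that scaling Gjc3 rose in KO (2.56, edgeR adjusted p = 0.00263), as did Plekhb1 in KO (1.11, 0.0105) and in WT (1.01, 0.0214). These rises are relative to a sum, in which the most abundant markers weigh most. Col1a1, Col1a2 and Col3a1 averaged 577, 1008 and 1013 CPM in KO at 19 dpp. With age in KO they changed by -3.09, -2.53 and -3.16 under TMM scaling. Of the 12 stromal markers 10 fell there and none rose. With total counts Plekhb1 (-0.89, edgeR adjusted p = 0.0193) and S100b (-1.29, 0.0115) fell in WT. Plekhb1 fell in KO by the Wald test of DESeq2 (-0.69, adjusted p = 0.0165) and in edgeR with only the KO libraries (-0.73, adjusted p = 0.0354). With Sertoli scaling the calls of Cdh19 in KO and Sox10 in WT were lost (edgeR adjusted p = 0.0749 and 0.481). The call of Cdh19 in KO was lost on leaving out any of the 4 KO libraries (edgeR adjusted p between 0.0808 and 0.198). Without KO replicate 1 at 19 dpp, 17 genes in all were called in KO, and those of Sox10 and S100b were lost too (0.0756 and 0.0595). In WT the call of Sox10 was lost without replicate 2 at 19 dpp (0.0529) or replicate 1 at 25 dpp (0.0647).

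**Figure D3:**
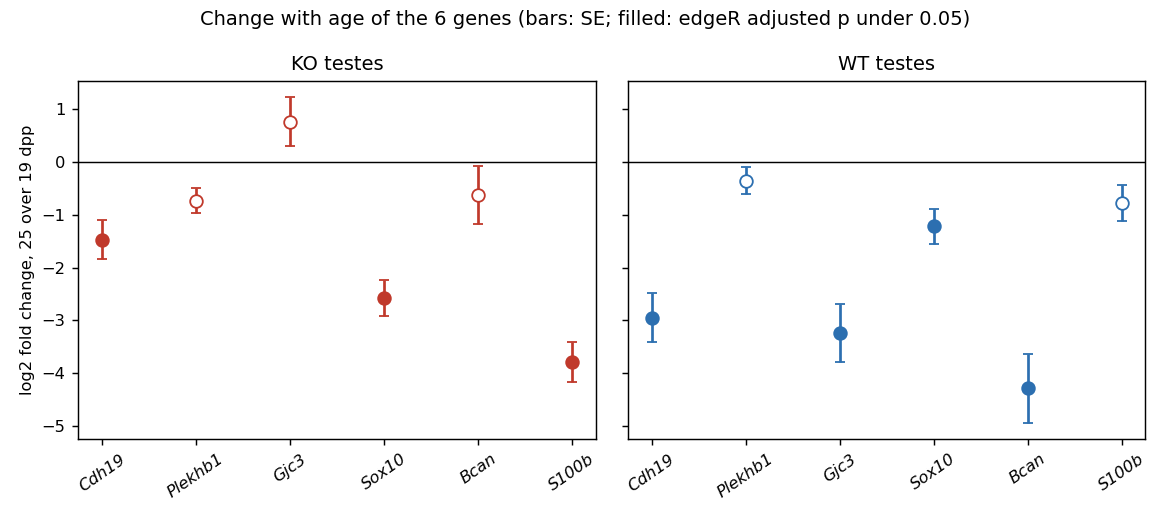
Log2 change of each gene at 25 over 19 dpp, KO testes on the left and WT testes on the right, with bars of 1 SE and filled points for an edgeR adjusted p under 0.05. Cdh19 and Sox10 lie below 0 in both genotypes, S100b has the deepest fall in KO at -3.79, and Bcan has the deepest in WT at -4.29.

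Profiles over the 8 libraries were compared by the root mean square (RMS) difference of centred log2 CPM, which is smaller for more alike genes. Within the 6, Sox10 and S100b were closest (RMS 0.727), then Gjc3 and Bcan (0.768) and Cdh19 and Bcan (0.804). Gjc3 and S100b were farthest apart (2.17). S100b was lowest in KO at 25 dpp, the group in which Gjc3 was highest. Among 14599 genes averaging at least 1 CPM, the 3 most like Cdh19 were Slc24a5 (0.273), Creb5 (0.292) and AC115033.1 (0.412). For Sox10 they were Nrk (0.181), Mgat3 (0.225) and Lpcat2 (0.231), and for S100b Pi15 (0.165), Cd248 (0.253) and Kdelr3 (0.285). Plekhb1 was most like Myoz2 (0.351), Dlx3 (0.357) and AC140283.1 (0.398). Gjc3 was most like Igfbp3 (0.454), Mir145a (0.489) and Mir143hg (0.521), and Bcan most like H2-Q10 (0.471), Tceal6 (0.477) and Ildr2 (0.481). None of these 18 is in the glial lists. At most 33 genes of those lists could be among the 14599, so nothing is read from this.

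The rest of the glial and myelin programme was read from lists of 15 myelin genes and 24 genes of Schwann and satellite glia, none of them among the 6. At 25 dpp 12 rose in KO (26.1% of all genes tested rose) and 8 fell (37.4% fell), and 13 of the 33 tested did not pass. At 19 dpp 9 rose (8.80% of all genes) and 2 fell (13.2%), and 22 did not pass. Of the 33, 7 rose at both ages, Mag fell at both, and Ugt8a and Kcna1 moved in opposite directions. How many of all genes did so is not reported here, so nothing is read from these counts. The calls at 19 dpp rest on single libraries. Over the 8 edgeR fits that each left out 1 library, the call at 19 dpp was lost in 8 for Kcna1, 7 for Egr2, 5 for Erbb3, 4 each for Pmp22 and Mbp, 3 each for Cnp and Drp2, 2 each for Matn2 and Ugt8a, and 1 each for Ncmap and Mag. For Kcna1 it was also lost with total counts (adjusted p = 0.0541), no filter (0.131), the replicate block (0.0572), both marker scalings (0.244 and 0.241) and the Wald test of DESeq2 (0.0888). The directions rest on the scaling. With Sertoli scaling 254 of all 23353 genes rose and 16125 fell at 25 dpp, and 73 rose and 9967 fell at 19 dpp. Of the 33 glial genes 1 rose and 13 fell at 25 dpp, and 1 rose and 12 fell at 19 dpp. With stromal and endothelial scaling 3260 of all genes rose and 9428 fell at 25 dpp, and 74 rose and 8967 fell at 19 dpp. Of the glial genes 8 rose and 9 fell at 25 dpp, and 1 rose and 9 fell at 19 dpp. The count at 19 dpp also rests on single libraries, being 4 without KO replicate 2 or without WT replicate 2. It was 0 in edgeR without KO replicate 1 at 19 dpp, where 13 passed an unadjusted p of 0.05 and DESeq2's Wald test called 8.

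Among genes of compact myelin and its support, 7 of 13 tested rose and 2 fell in KO at 25 dpp, with a median log2 fold of 0.97. Over all genes 26.1% rose and 37.4% fell. At 19 dpp 5 rose and 2 fell, with a median of 0.48, against 8.80% and 13.2% of all genes. Drp2, a dystrophin-related protein of the Schwann cell membrane, averaged 119 ± 20.4 CPM in KO and 37.9 ± 4.42 CPM in WT at 25 dpp (SD, n = 2 each; log2 fold 1.65, SE 0.16, edgeR adjusted p = 3.26e-04). At 19 dpp Drp2 averaged 162 ± 3.71 CPM in KO and 90.0 ± 0.0455 CPM in WT (log2 fold 0.85, edgeR adjusted p = 0.0112). Ncmap, a non-compact myelin protein, averaged 9.91 ± 1.36 CPM in KO and 2.92 ± 0.0855 CPM in WT at 25 dpp (log2 fold 1.76, edgeR adjusted p = 0.00287). At 19 dpp Ncmap averaged 29.97 ± 2.50 CPM in KO and 7.08 ± 3.34 CPM in WT (log2 fold 2.08, edgeR adjusted p = 0.00877). Both rose at both ages under TMM scaling. With Sertoli scaling the calls at 25 dpp were lost for Drp2 (0.25, edgeR adjusted p = 0.341) and Ncmap (0.33, 0.378), and at 19 dpp Drp2 came to -0.039. Pmp22, a tetraspan myelin protein, rose by 1.28 at 25 dpp and 1.03 at 19 dpp (edgeR adjusted p 0.00336 and 0.0253), and with Sertoli scaling was -0.13 at 25 dpp. Cnp, an enzyme of myelin-forming cells, rose by 0.90 at 25 dpp and 0.87 at 19 dpp (edgeR adjusted p 0.00633 and 0.0231). Its value at 25 dpp under other scalings is not reported here, and 1 of the 33 glial genes rose there with Sertoli scaling. At 19 dpp both marker scalings ended the calls of Drp2, Pmp22 and Cnp, and for Cnp total counts did too (edgeR adjusted p = 0.0508).

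Other myelin genes did not move as a block. Mbp, myelin basic protein, gave -0.01 at 25 dpp (edgeR adjusted p = 0.972) and rose by 1.19 at 19 dpp (0.0260), a call lost with both marker scalings (0.542 and 0.410). Mag, the myelin-associated glycoprotein, averaged 4.97 ± 1.91 CPM in KO and 40.4 ± 5.32 CPM in WT at 25 dpp, a log2 fold of -3.03 (edgeR adjusted p = 7.71e-04), and fell at 19 dpp as well (-3.91, 0.00714). Fa2h, which hydroxylates fatty acids of myelin lipids, averaged 1.58 ± 0.83 CPM in KO and 105.8 ± 28.03 CPM in WT at 25 dpp (log2 fold -6.04, edgeR adjusted p = 3.08e-04). Ugt8a, the enzyme that makes galactocerebroside, rose by 1.61 at 25 dpp (0.00231), a call lost with Sertoli scaling (0.624), and fell at 19 dpp (-1.33, 0.0183).

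Among genes of Schwann and satellite glia, 5 of 20 tested rose and 6 fell in KO at 25 dpp (median 0.45). Neither count was above the share of all genes, of which 26.1% rose and 37.4% fell. At 19 dpp 4 rose and none fell (median 0.66), against 8.80% and 13.2% of all genes. The 4 include Kcna1, a potassium channel of the axon. Erbb3, the receptor through which axonal neuregulin reaches Schwann cells, averaged 12.3 ± 2.40 CPM in KO and 1.74 ± 0.51 CPM in WT at 25 dpp (log2 fold 2.82, SE 0.50, edgeR adjusted p = 0.00247). At 19 dpp Erbb3 averaged 27.7 ± 0.22 CPM in KO and 7.67 ± 5.24 CPM in WT (log2 fold 1.86, edgeR adjusted p = 0.0313). That fold was 1.29 without WT replicate 2, where the call was lost (0.0608), and 2.81 without WT replicate 1, and it was 1.01 and not called with either marker scaling (0.129 and 0.188). Egr2, the transcription factor that drives myelination, rose by 2.10 at 25 dpp and 1.12 at 19 dpp (edgeR adjusted p 0.00156 and 0.0439), and Matn2, a matrix protein, by 1.24 and 1.59 (0.00704 and 0.0111). The call of Egr2 at 19 dpp was lost with total counts (0.0661), no filter (0.0734), the replicate block (0.0560), only the groups at that age (0.0613) and both marker scalings (0.606 and 0.595), and at 25 dpp with Sertoli scaling (0.140). With Sertoli scaling Matn2 at 25 dpp was -0.15, and at 19 dpp neither marker scaling called it (0.0526 and 0.0560). Cadm4, an adhesion protein of Schwann cells, rose by 1.01 at 25 dpp (0.0162) and was -0.40 there with Sertoli scaling. Ngfr, the low-affinity neurotrophin receptor, had 3 and 4 counts in KO and 998 and 771 counts in WT at 25 dpp, with a log2 fold of -7.79 (SE 0.64, edgeR adjusted p = 3.08e-04). Gfap (-3.32) and Ncam1 (-2.25) fell at 25 dpp too. Of the 8 glial genes that fell in KO at 25 dpp, 6 had risen with age in WT, where 34.9% of all genes rose. Mag, Fa2h, Ngfr, Gfap and Ncam1 were among these, with rises of 5.98 for Fa2h, 5.15 for Ngfr and 1.84 for Mag. Both contrasts use the WT libraries at 25 dpp, so a gene high in them tends to pass in both. Nothing is therefore read from this count. Between 19 and 25 dpp 14 of 14 spermatid markers rose in WT too. Their summed level was 6947 and 2447 CPM at 25 dpp and 165 and 274 CPM at 19 dpp. The part of germ cells in these falls was not tested.

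**Figure D4:**
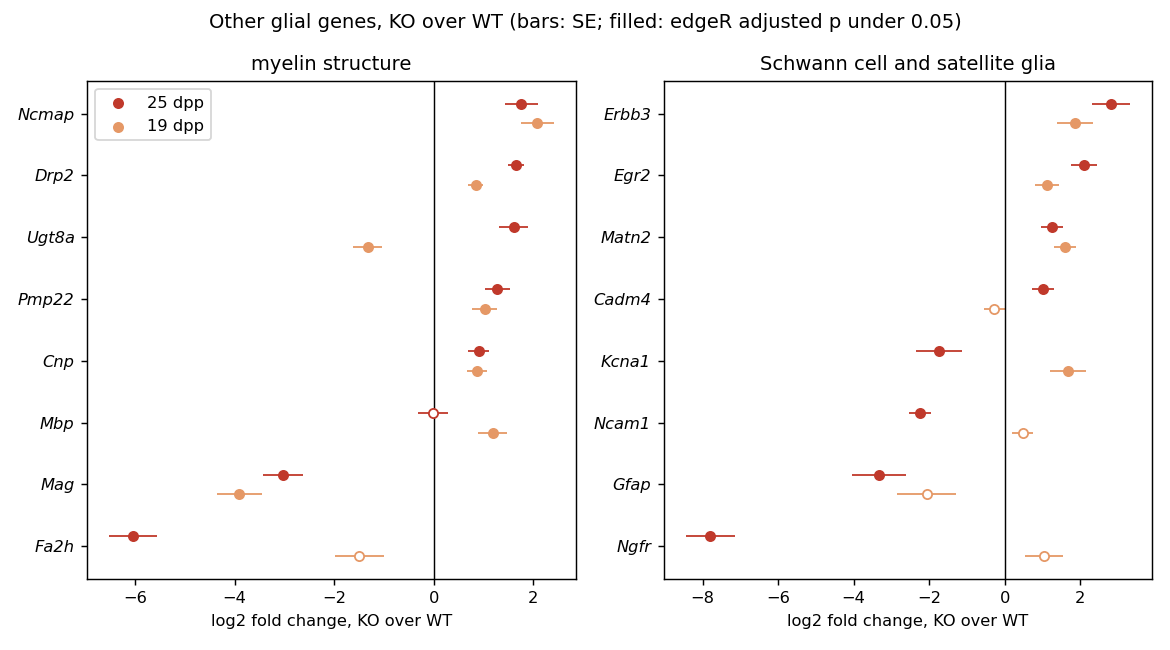
Log2 fold of KO over WT for 16 glial and myelin genes named in the text outside the 6, at 25 and 19 dpp, with bars of 1 SE and filled points for an edgeR adjusted p under 0.05. Of the genes drawn, 9 passed to the right of 0 and 6 to the left at 25 dpp, with Ngfr at -7.79, and 9 to the right and 2 to the left at 19 dpp.

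The label was checked against defining markers. The 6 glial genes that did not pass the filter were Cldn19, Gjb1, Foxd3, Fabp7, Sox2 and Gpr37l1, at 0 to 0.218 CPM in every library. These markers of precursor and myelinating Schwann cells were thus near the counting floor. The RNA of the 6 genes is therefore not assigned to a cell type here. Of 13 markers of axons and sympathetic neurons, 8 did not pass the filter, at up to 1.00 CPM. In KO 2 rose at 19 dpp, Tubb3 (log2 fold 1.04, edgeR adjusted p = 0.0397) and Nefm (1.22, 0.0499), and none passed at 25 dpp. Of 10 markers of central glia 6 were tested, and 1 rose and 3 fell at 25 dpp and none passed at 19 dpp. Of 5 melanocyte markers 2 were tested and both fell at 25 dpp, Tyrp1 being at 0 throughout. Over all genes 26.1% rose and 37.4% fell in KO at 25 dpp, and 8.80% rose and 13.2% fell at 19 dpp.

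Markers of other cell types were counted beside the share of all genes tested. In KO at 25 dpp 26.1% of all genes rose and 37.4% fell, and at 19 dpp 8.80% rose and 13.2% fell. Of 12 stromal markers 7 rose and 1 fell in KO at 25 dpp, and 8 rose at 19 dpp. Their sum was 969.5 and 1032 CPM in KO and 679 and 917 CPM in WT at 25 dpp, and 3968 and 3395 CPM in KO and 2024 and 2185 CPM in WT at 19 dpp. Of 12 endothelial markers 1 rose and 1 fell at 25 dpp and 4 rose at 19 dpp. Of 17 Leydig markers 3 rose and 5 fell at 25 dpp and 3 rose at 19 dpp. Of 10 peritubular markers 2 rose and 1 fell at 25 dpp and 2 rose at 19 dpp. At 25 dpp the endothelial, Leydig and peritubular counts lay below the shares of all genes in both directions. These counts give no sizes. Among the Leydig markers, the log2 fold of KO over WT at 25 dpp was -6.77 for Cyp11a1 and 3.12 for Ptgds. In WT at 19 dpp Cyp11a1 was read at 3.15 CPM in replicate 1 and 73.7 CPM in replicate 2. The summed level of the 6 genes was 45.7 and 39.5 CPM in KO and 6.79 and 8.31 CPM in WT at 25 dpp, and 90.7 and 78.5 CPM in KO and 52.7 and 24.1 CPM in WT at 19 dpp. Summed adipose markers, which would mark attached fat, were 3.03 and 3.69 CPM in KO and 15.8 and 11.6 CPM in WT at 25 dpp. At 19 dpp they were 12.5 and 19.3 CPM in KO and 5.98 and 61.1 CPM in WT. The part of these cell types in the values of the 6 genes was not tested.

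Relatives of the 6 genes gave a mixed picture. Of 16 paralogs, 5 rose and 2 fell in KO at 25 dpp (median 0.20), against 26.1% and 37.4% of all genes. At 19 dpp 4 rose and 1 fell (median 0.52), against 8.80% and 13.2%. Sox9, the SOXE partner of Sox10 that marks Sertoli cells, averaged 93.5 ± 0.71 CPM in KO and 31.9 ± 6.58 CPM in WT at 25 dpp (log2 fold 1.55, edgeR adjusted p = 6.81e-04), and rose by 1.07 at 19 dpp (0.0117). Sox8, the third SOXE gene, gave 0.61 at 25 dpp and 0.96 at 19 dpp, neither past the threshold (edgeR adjusted p = 0.126 and 0.0683). Plekhb2 gave 0.15 and -0.45 (0.421 and 0.0698). Gjc1, a connexin gene of the same group as Gjc3, gave 0.33 at 25 dpp (0.209) and fell at 19 dpp (-0.79, 0.0385). S100a1 rose by 2.28 at 25 dpp (0.0143), with 785 and 153 counts in KO replicates 1 and 2, and gave 0.47 at 19 dpp (0.632).

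The protein-coding neighbours on GENCODE M21 were looked up on each side of each gene. Rab6a, 1624 bp from Plekhb1, gave a log2 fold of 0.20 at 25 dpp (edgeR adjusted p = 0.181) and -0.01 at 19 dpp. Fam168a, on the other side of Plekhb1 at 44221 bp, rose by 1.35 at 25 dpp (6.18e-04) and gave 0.26 at 19 dpp. Polr2f, 3134 bp from Sox10, gave 0.16 and -0.13, whereas Pick1 on the other side fell at both ages (-1.02 and -0.69). Nes, 7080 bp from Bcan, encodes nestin, an intermediate filament protein of neural precursors, and rose by 1.01 at 25 dpp (0.00940), with 0.56 at 19 dpp (0.149). Hapln2, 21520 bp from Bcan on the other side, encodes a link protein of brain matrix and fell at 25 dpp (-2.07, 0.0166). Prmt2, 15988 bp from S100b, rose by 1.12 at 25 dpp (0.00352) and gave 0.72 at 19 dpp (0.0532). Dsel, 881118 bp from Cdh19, rose by 1.09 at 25 dpp (0.00300). Cdh7 beside Cdh19 and Cyp3a13 and Azgp1 beside Gjc3 did not pass the filter. The nearest neighbours of Plekhb1 and Sox10 therefore gave log2 folds of 0.20 or less in size at both ages, with no call.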

How the data were processed

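The deposited values are raw counts per gene, 1 file per library for 8 libraries. Per the labels' protocols, RNA was extracted with Trizol, DNase-treated and made into stranded mRNA libraries, and per the submitters' processing notes STAR 2.7.0a, featureCounts 1.5.1 and mm10 were used. The gene annotation, strand setting and treatment of multiply aligned reads are not given in the sources used here. Of 55292 entries, 1205 repeat families (4.10 to 5.68% of counts) were left out. From the counts, edgeR 4.0.16 (R 4.3.3) was run with TMM scaling and filterByExpr by group, leaving 23353 genes, with a robust quasi-likelihood fit of 1 mean per group, 4 residual degrees of freedom and Benjamini-Hochberg adjustment at 0.05. The SE is the absolute log2 fold over the square root of F. CPM values were computed here from the deposited counts.

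The 6 genes and the gene lists were chosen with earlier results of these data known. Glial genes outside the 6 are named where they passed the threshold, up to 4 per list, direction and age by p, with Mbp, Erbb3 and Ngfr always; a few other genes of these lists are not reported here. Dnmt3a, Tubb3, Nefm, Cyp11a1 and Ptgds were named after their values were seen. The test of the difference between the ages in KO effect was added to the planned tests. Replicates differed beyond sampling noise (chi-square per degree of freedom 14.6 to 74.3), so none was merged. Genes were placed on GENCODE M21 (GRCm38), and all 6 matched by symbol. Alternatives were total counts, DESeq2 size factors, Sertoli or stromal and endothelial sums as scaling, other filters, the Wald test of DESeq2 1.42.0, a replicate block, only the groups compared, and leaving out each library. With 1 library left out, the lone library of its group is assumed to vary like the others. The procedure was tested on simulated data.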

Additional observations from a re-analysis of the deposited data

Results flagged for a closer look

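The KO effect differed between the ages, as the log2 fold at 25 dpp minus that at 19 dpp. For S100b every KO library lay below WT at 25 dpp and above WT at 19 dpp, a difference of -3.00 that was not tested, since the gene was chosen on these contrasts. Of the 33 glial genes tested outside the 6, the difference passed edgeR's quasi-likelihood test, adjusted over all genes, for 6. Before adjustment, that test put 8411 of the 23353 genes below 0.05. How many passed after adjustment is not reported here, so nothing about glial genes as a set is read from this count. The difference was -8.84 for Ngfr (SE 0.81, adjusted p = 0.00477), -4.54 for Fa2h (SE 0.67, adjusted p = 0.00821) and -2.72 for Ncam1 (SE 0.41, adjusted p = 0.00778). Kcna1, a potassium channel of the axon, gave -3.41 (SE 0.77, adjusted p = 0.0242) on 2 and 3 counts in KO and 11 and 8 counts in WT at 25 dpp, close to the counting floor. It was 2.93 for Ugt8a (SE 0.41, adjusted p = 0.00667) and 0.81 for Drp2 (SE 0.22, adjusted p = 0.0393).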

How the results depend on the processing

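With all 8 libraries, TMM and edgeR, KO against WT called 14840 genes at 25 dpp (6096 higher, 8744 lower) and 5145 at 19 dpp (2054 higher, 3091 lower). At 25 over 19 dpp, 4451 were called in KO (2379 higher, 2072 lower) and 14079 in WT (8151 higher, 5928 lower). With total counts 16100 were called at 25 dpp (8995 higher, 7105 lower), the median log2 fold of the 6 genes there was 3.54, and 16013 were called with age in WT (6295 higher, 9718 lower). With Sertoli scaling 16379 were called at 25 dpp (254 higher), 10040 at 19 dpp (73 higher), 2834 with age in KO (2285 higher) and 12281 in WT (11909 higher). The medians of the 6 were 1.64 at 25 dpp and 0.96 at 19 dpp, and the glial genes called were 14 and 13. With stromal and endothelial scaling 12688 were called at 25 dpp (3260 higher), 9041 at 19 dpp (74 higher), 17433 with age in KO (17347 higher) and 15345 in WT (15288 higher). The glial genes called were then 17 at 25 dpp and 10 at 19 dpp, and the median of the 6 at 19 dpp was 1.04. DESeq2's Wald test called 7784 at 19 dpp and 7276 with age in KO, and using only the groups compared gave 6698 with age in KO.

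Single genes changed sign in few cases beside those in the report. With Sertoli scaling the age change in WT was 0.58 for Plekhb1 and 0.10 for S100b. With stromal and endothelial scaling it was 0.39 for Cdh19, 1.11 for Plekhb1 and 1.23 for Bcan in KO, and 1.01 for Plekhb1, 0.11 for Sox10 and 0.56 for S100b in WT. Under Sertoli scaling KO over WT was -0.68 for Sox10, -0.13 for Pmp22, -0.15 for Matn2 and -0.40 for Cadm4 at 25 dpp, and -0.25 for Gjc3, -0.59 for Bcan and -0.039 for Drp2 at 19 dpp. Under stromal and endothelial scaling it was -0.23 for Gjc3 and -0.60 for Bcan at 19 dpp, and Bcan with TMM scaling ran from -0.38 without WT replicate 2 to 1.39 without WT replicate 1. The cause was not tested.

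Leaving out 1 library at a time, genes called ran from 11219 to 15272 at 25 dpp, 0 to 5632 at 19 dpp, 17 to 4794 with age in KO and 10282 to 14361 with age in WT. The glial genes called ran from 16 to 20 at 25 dpp and 0 to 12 at 19 dpp, and the medians of the 6 from 2.91 to 3.19 and 1.67 to 2.01. Without KO replicate 1 at 19 dpp edgeR called 0 genes at 19 dpp, where 5256 had an unadjusted p under 0.05 and DESeq2, chosen after seeing the data, called 3721. Without replicate 2 of WT or KO at 19 dpp, 1958 and 1647 were called. Deviations of same-numbered libraries correlated between -0.0877 and 0.361, above 0.1 in 1 of 6 pairs of groups, so the numbers pair no libraries. A replicate block gave 14721 calls at 25 dpp, 4963 at 19 dpp, 4348 and 14028 with age in KO and WT, 20 and 10 glial genes at 25 and 19 dpp, and medians of 3.03 and 1.88.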
